A study of Bos taurus with 22 samples.

Results

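SREBF1 (ENSBTAG00000007884) and ACLY (ENSBTAG00000016740) are 2 of the 24616 genes counted in bovine subcutaneous adipose tissue, a transcription factor of fat synthesis and an enzyme of the same pathway. Both were picked by name, but they are among the genes that the study had called between RFI groups in these same KC steers, so the KC tests below describe those steers again and are no independent evidence. RNA-Seq was available for 22 steers, each steer being 1 library. Feed efficiency was given as RFIfat, the residual feed intake in kg after correction for backfat, which is the gap between what a steer ate and what its growth and fatness predict, so that a low value (L-RFI) marks an efficient steer and a high value (H-RFI) an inefficient one. Steers were Angus (ANG, 4 H-RFI and 4 L-RFI), Charolais (CHAR, 3 and 3) and Kinsella composite (KC, 4 and 4). The labels describe KC as a Hereford x Angus cross, whereas the study's methods describe a broader composite herd with Charolais and Holstein ancestry as well. RFIfat was 0.54 to 2.03 kg in KC H-RFI, -1.77 to -0.8 kg in KC L-RFI, 0.75 to 1.64 kg in ANG H-RFI, -1.13 to -0.75 kg in ANG L-RFI, 0.69 to 1.1 kg in CHAR H-RFI and -1.03 to -0.96 kg in CHAR L-RFI steers. All groups were fed the same finishing diet and sampled soon after slaughter, and the RNA-Seq steers were those at the top and bottom of RFI in their breed whose RNA passed quality control. Their exact age is not given in the sources used here.

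SREBF1 encodes SREBP-1, a membrane-bound transcription factor that is cut and released to switch on genes of fatty acid synthesis, and insulin and feeding raise its activity in adipose tissue and liver. ACLY encodes ATP citrate lyase, which splits citrate exported from mitochondria into oxaloacetate and acetyl-CoA, the building block of fatty acids and sterols, and it is a target of SREBP-1. Ruminant adipose tissue builds fatty acids largely from acetate taken from the blood and has long been known for low ATP citrate lyase activity, so this step is less central than in rodents. The gene counts do not separate the SREBP-1a and SREBP-1c transcripts, which share most of SREBF1. In RefSeq's annotation of the later assembly ARS-UCD2.0, consulted for neighbouring genes alone, SREBF1 overlapped RAI1 and hosts the microRNA gene MIR33B, while ACLY overlapped no gene. Reads falling where SREBF1 and RAI1 overlap could have been left uncounted as ambiguous, since the strand setting of the counting is not given in the sources used here.

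Both genes were well covered in every steer. Levels are TMM-scaled CPM, the reads on a gene per megaread of the effective library size over the 22 steers, and they compare a gene between steers, not SREBF1 with ACLY, because they are not divided by transcript length. SREBF1 had 1060 to 4516 reads per steer and a level of 115 to 415 CPM, a 3.61-fold range with a mean of 226 ± 89.2 CPM (SD, n = 22). ACLY had 2017 to 32000 reads and a level of 214 to 3837 CPM, a 17.9-fold range with a mean of 1142 ± 871 CPM (SD, n = 22). After the means of the 6 groups were taken out, the SD on the log2 scale was 0.47 for SREBF1 and 0.91 for ACLY, against a median of 0.26 over the 14048 genes tested across breeds. Among the 1661 genes with a mean of at least 100 CPM, 14 varied more between steers of a group than ACLY did, and 121 varied more than SREBF1. ACLY was therefore one of the most variable abundant transcripts between steers of the same breed and RFI class, which widens every interval given for it.

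Library facts that touch these genes were few. Reads counted on genes ranged from 8033008 to 12426133 per steer, so counting error was small beside the spread between animals. The share of uniquely placed reads that fell on genes was 39.5% to 41.4% in KC H-RFI and 37.2% to 38.5% in KC L-RFI steers, without overlap, 38.9% to 42.5% in ANG and 34.3% to 39.9% in CHAR. In 6 libraries (F8, F10, F14, F18, F25 and F28, none of them CHAR) 0.303% to 0.512% of these reads were ambiguous between genes, against 0.938% to 2.16% in the other 16. The part of these shares in the results was not tested, except that a term for the 6 libraries was added as an alternative. The samples are labelled Adipocytes, but the tissue is whole backfat, and the label could not be checked because none of 8 adipocyte markers could be matched to an identifier. In whole tissue, fewer cells of a type and less RNA per cell cannot be told apart.

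The first question was whether efficient and inefficient steers of a breed differ in SREBF1. In KC, SREBF1 was at 260, 394, 340 and 177 CPM in H-RFI steers F1, F7, F8 and F9, and at 115, 139, 153 and 124 CPM in L-RFI steers F10, F11, F14 and F16. Every L-RFI steer sat below every H-RFI steer, and the L-RFI values were close together (SD 16.8 CPM) while the H-RFI values were spread (SD 94.5 CPM). The means were 133 and 293 CPM, a log2 fold change (log2FC, L-RFI against H-RFI) of -1.14 (SE 0.22, 95% interval -1.63 to -0.65), or a 2.20-fold lower fitted level in L-RFI steers. The unadjusted p was 0.00040 by edgeR's quasi-likelihood test, placing SREBF1 34th of the 13725 genes tested, but the Benjamini-Hochberg FDR was 0.126, so it was not called at the limits used (FDR below 0.1 and absolute log2FC of at least 1). That rule called 0.00729% of all genes in KC, a single gene. An exact 2-sided permutation test gave p = 0.0286, the smallest that 4 steers against 4 can give. Nonoverlap of this kind, with L-RFI lower, held for 5.6% of all genes in KC.

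The call for SREBF1 in KC depended on the test. Its FDR was 0.00072 by DESeq2, where 0.685% of genes were called lower, 0.00036 by edgeR's exact test, where 0.75% were, and 0.00124 by edgeR's likelihood ratio test, where 0.758% were. A quasi-likelihood fit of all 22 steers gave an FDR of 0.0655, with 0.392% of genes called lower. The log2FC stayed between -1.17 and -1.13 under these and the other settings. Without F9, the H-RFI steer nearest to the L-RFI group, log2FC was -1.32 and the FDR 0.0981, with 0.0147% of genes called lower. Without F7 log2FC was -0.96, short of the fold limit, with an FDR of 0.302, and without F10 the FDR was 0.341. The term for libraries with few ambiguous reads gave an FDR of 0.217.

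**Figure D1:**
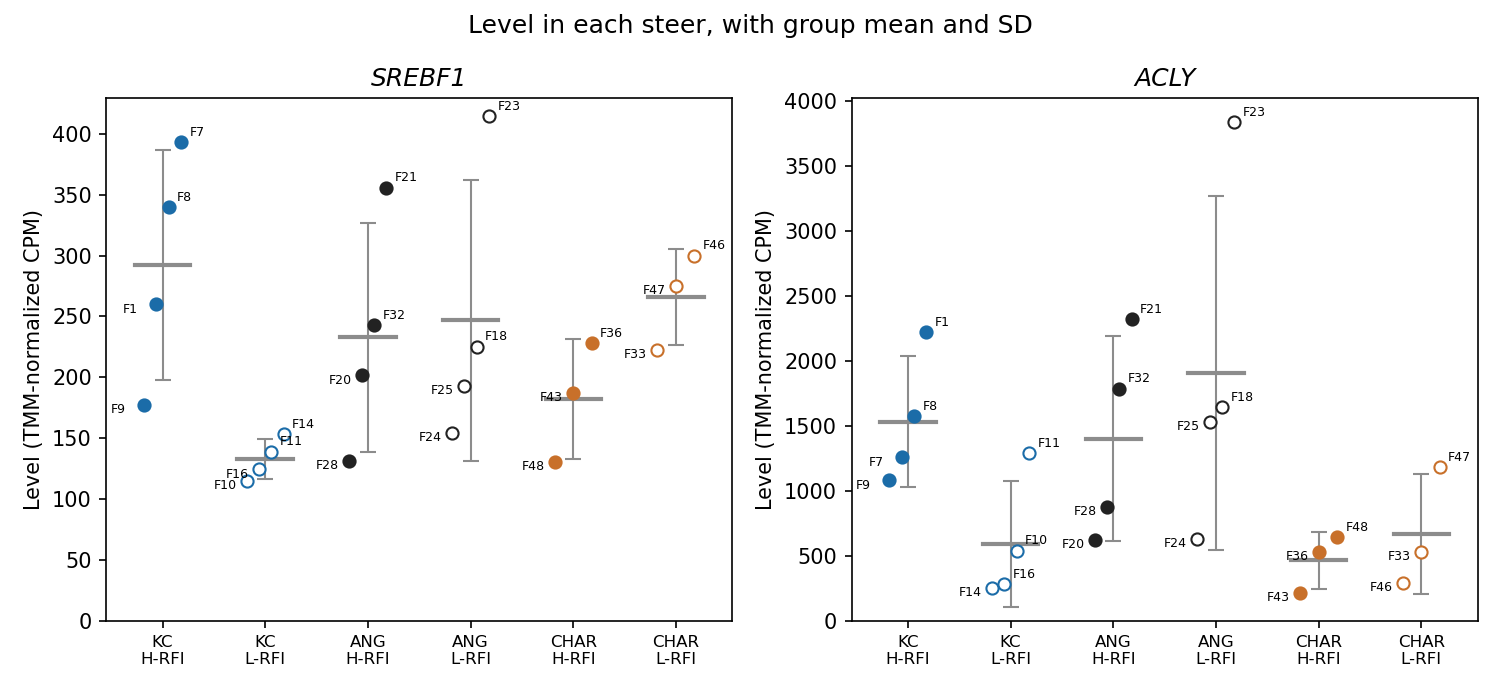
Level of SREBF1 (left) and ACLY (right) in every steer, in TMM-normalized CPM on linear axes from 0. Each point is 1 steer, filled for H-RFI and open for L-RFI, and grey bars are the group mean with its SD (n = 4 for KC and ANG groups, n = 3 for CHAR groups). For SREBF1 the 4 KC L-RFI steers lie at 115 to 153 CPM, below all 4 KC H-RFI steers, and for ACLY steer F11 at 1291 CPM stands above the other 3 KC L-RFI steers.

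ACLY in KC showed the same sign with more scatter. Its level was 2222, 1256, 1571 and 1079 CPM in H-RFI steers F1, F7, F8 and F9, and 539, 1291, 251 and 283 CPM in L-RFI steers F10, F11, F14 and F16. Of the L-RFI steers, F10, F14 and F16 lay below every H-RFI steer, and F11 lay within the H-RFI range, above F7 and F9. The means were 591 ± 484 CPM in L-RFI and 1532 ± 503 CPM in H-RFI steers (SD, n = 4 each). The log2FC was -1.36 (SE 0.48, 95% interval -2.44 to -0.29) with an unadjusted p of 0.0178 and an FDR of 0.188 by the quasi-likelihood test, and the exact permutation p was 0.0857. An unadjusted p under 0.05 with L-RFI lower was met by 9.34% of all genes in KC, and the same with L-RFI higher by 8.9%, so the p-value alone does not set ACLY apart from many genes in this breed.

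Within the quasi-likelihood test, steer F11 decided the ACLY call in KC. Without it, log2FC was -2.09 and the FDR 0.0589, past both limits, with 0.294% of genes called lower. F11 was also the steer with the most TTN, the giant sarcomere protein of striated muscle and the single one of 7 striated muscle markers that could be matched, at 2348 CPM against 79.0 to 257 CPM in the other KC L-RFI steers and 63.7 to 273 CPM in KC H-RFI steers. Its SREBF1, at 139 CPM, lay within the range of the other L-RFI steers. TTN could be matched because the study had called it higher in KC L-RFI steers, F11 among them, so this marker was not chosen independently of F11. The part of muscle RNA in the ACLY value of F11 was not tested. ACLY was also called by edgeR's exact test (FDR 0.0449) and likelihood ratio test (FDR 0.0883), but not by DESeq2 or the fit of all 22 steers.

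In ANG the pair did not follow this order. SREBF1 was at 202, 356, 131 and 243 CPM in H-RFI steers F20, F21, F28 and F32, and at 225, 415, 154 and 193 CPM in L-RFI steers F18, F23, F24 and F25. The ranges overlapped, with F23 above every H-RFI steer. The log2FC was 0.09 (SE 0.35, 95% interval -0.69 to 0.86, FDR 0.996) and the exact permutation p 0.857. ACLY was at 622, 2322, 875 and 1786 CPM in the same H-RFI steers and at 1643, 3837, 627 and 1530 CPM in the same L-RFI steers. The ACLY ranges again overlapped, and F23, above every H-RFI steer, had the highest ACLY of any steer. The log2FC of ACLY was 0.45 (SE 0.54, 95% interval -0.75 to 1.65, FDR 0.996), with an exact permutation p of 0.629. In ANG 0% of genes were called, 3.14% were lower in L-RFI at an unadjusted p under 0.05, and 1.9% were higher. Without F23 both estimates turned negative, SREBF1 to -0.29 and ACLY to -0.14, and without F28 that of SREBF1 turned to -0.11.

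In CHAR, SREBF1 was at 228, 187 and 130 CPM in H-RFI steers F36, F43 and F48, and at 223, 300 and 275 CPM in L-RFI steers F33, F46 and F47. Both F46 and F47 exceeded every H-RFI steer, and F33 lay just under F36. The log2FC was 0.55 (SE 0.21, 95% interval 0.05 to 1.05), opposite in sign to KC, with an unadjusted p of 0.0343 and an FDR of 0.948 by the quasi-likelihood test. An unadjusted p under 0.05 with L-RFI higher was met by 2.42% of all genes in CHAR and with L-RFI lower by 2.21%, and 0% were called. The exact permutation p was 0.2, in a design whose smallest p is 0.1. In the same steers 1 of 3 smooth muscle markers could be matched, the smooth muscle actin ACTG2, and it was at 2.31 to 7.43 CPM in H-RFI and 11.3 to 32.6 CPM in L-RFI steers, without overlap. A marker could be matched only if the study had called it between RFI groups in these same steers. The ACTG2 difference is therefore no independent evidence, and the share of all genes without overlap in CHAR was not counted. The part of smooth muscle cells in the SREBF1 value was not tested.

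ACLY in CHAR was at 529, 214 and 645 CPM in F36, F43 and F48, and at 529, 292 and 1181 CPM in F33, F46 and F47. The log2FC was 0.54 (SE 0.55, 95% interval -0.73 to 1.80, FDR 0.981), the exact permutation p was 0.5, and without F47 the estimate turned to -0.17. F33 and F36, which differ in RFI class, had nearly equal levels of both genes. The 2 CHAR steers with the highest SREBF1, F46 and F47, had the second lowest and the highest ACLY of their breed.

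**Figure D2:**
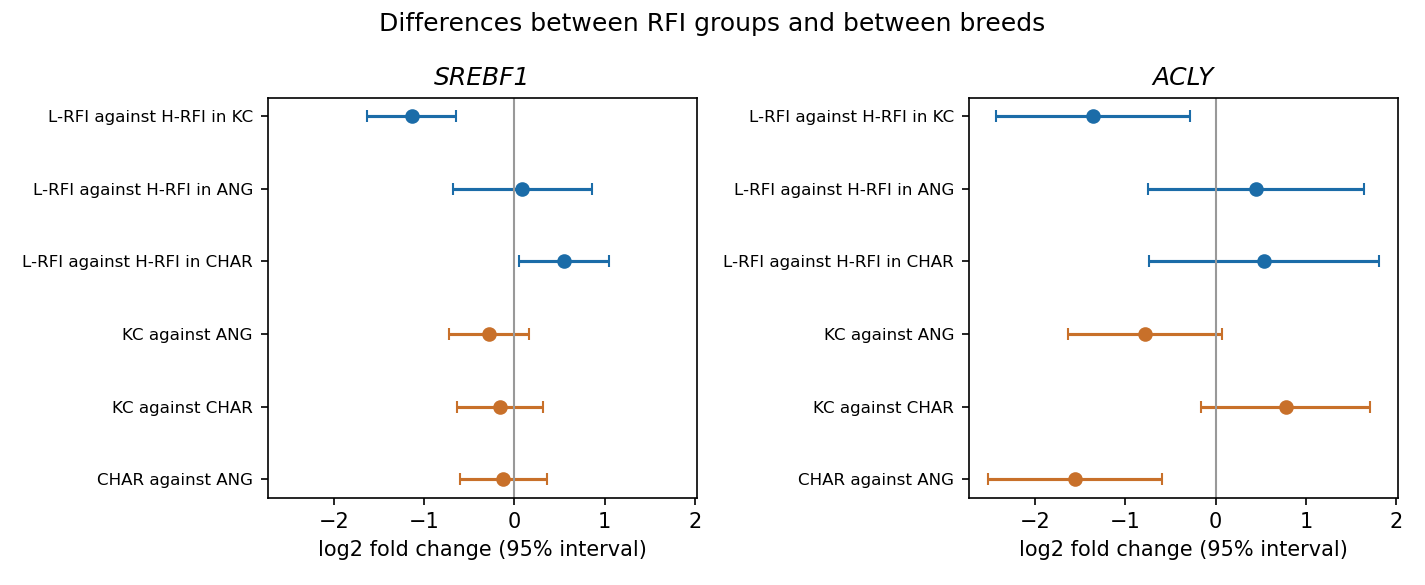
Fitted log2 fold changes of SREBF1 (left) and ACLY (right) with 95% intervals from edgeR's quasi-likelihood test, for L-RFI against H-RFI within each breed (blue) and for pairs of breeds (orange). The KC intervals for RFI lie below 0 in both panels, at -1.63 to -0.65 for SREBF1 and -2.44 to -0.29 for ACLY, that of SREBF1 in CHAR lies above 0, at 0.05 to 1.05, and of the breed intervals the one that excludes 0 is ACLY in CHAR against ANG, at -2.52 to -0.59.

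The next question was whether the RFI difference itself differed between breeds. Over all 22 steers the breed by RFI interaction of SREBF1 had an unadjusted p of 0.0037, rank 85 of 14048 genes, and an FDR of 0.606, while that of ACLY had a p of 0.061 and an FDR of 0.707 (edgeR quasi-likelihood test). The interaction was called at an FDR below 0.1 for 0.00712% of genes, and 7.19% had an unadjusted p under 0.05. For SREBF1 the RFI log2FC of CHAR exceeded that of KC by 1.69 (SE 0.46, 95% interval 0.72 to 2.65, FDR 0.571) and that of ANG exceeded that of KC by 1.22 (SE 0.43, interval 0.33 to 2.11, FDR 0.495). For ACLY the same differences were 1.90 (SE 0.89, FDR 0.726) and 1.82 (SE 0.82, FDR 0.538). The KC steers are in both differences of each gene, so these are not separate pieces of evidence. CHAR and ANG differed from each other by 0.46 (SE 0.46) for SREBF1 and 0.08 (SE 0.88) for ACLY. A difference in the RFI effect between breeds was thus not called for either gene.

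Averaged over the breeds, the RFI log2FC was small, at -0.17 (SE 0.18, 95% interval -0.55 to 0.21, FDR 0.708) for SREBF1 and -0.13 (SE 0.35, interval -0.87 to 0.60, FDR 0.898) for ACLY. This contrast called 0% of genes, and 7.72% had an unadjusted p under 0.05 with L-RFI lower. RFIfat used as a number rather than as a class gave the same picture. Per kg of RFIfat within breed, log2 SREBF1 changed by 0.09 (SE 0.10, FDR 0.783) and log2 ACLY by 0.11 (SE 0.18, FDR 0.852), and 0.00712% of genes were called. Within KC the highest SREBF1, in F7, belonged to the H-RFI steer with the lowest RFIfat, 0.54 kg, and the lowest H-RFI value, in F9, to the steer with the highest, 2.03 kg.

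**Figure D3:**
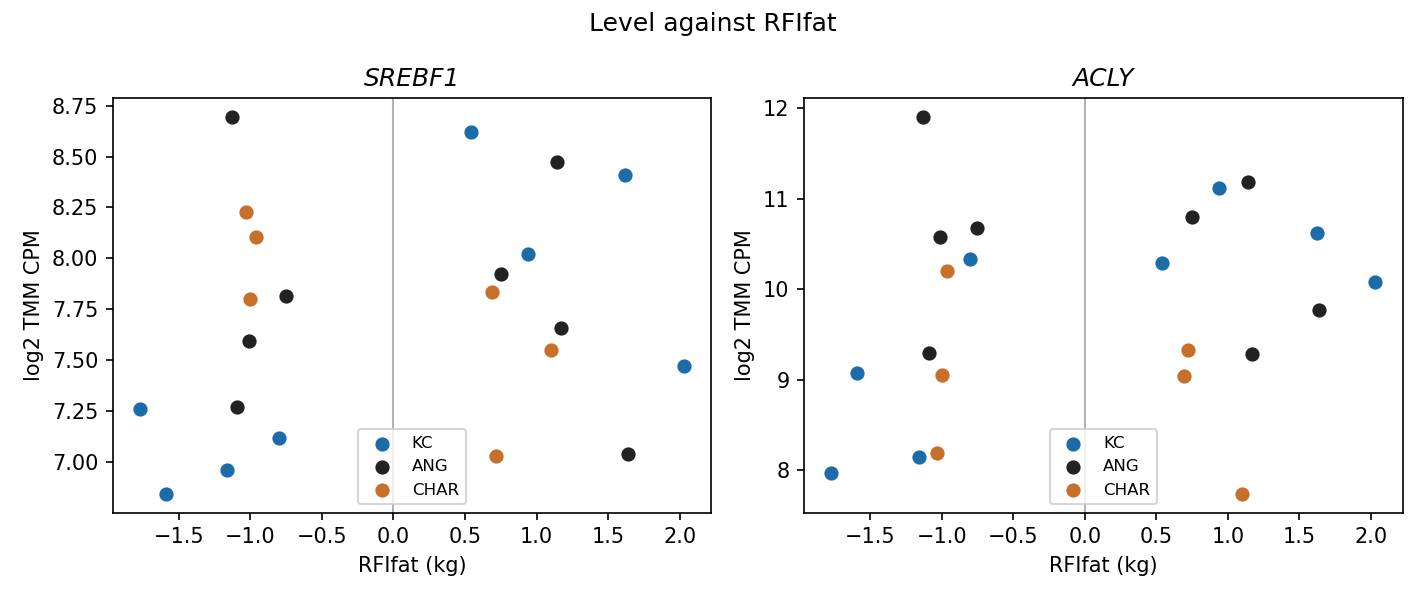
Level of SREBF1 (left) and ACLY (right) as log2 TMM CPM against RFIfat in kg, 1 point per steer, coloured by breed. Points left of 0 kg are L-RFI steers and points right of it H-RFI steers, and the within-breed slopes were 0.09 per kg for SREBF1 and 0.11 per kg for ACLY, each smaller than its SE.

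Between breeds, with the RFI classes averaged, no contrast of either gene was called by the quasi-likelihood test, and mean ACLY was lowest in CHAR. Averaged over the RFI classes, SREBF1 was at 213 ± 106 CPM in KC (SD, n = 8), 240 ± 97.8 CPM in ANG (SD, n = 8) and 224 ± 60.8 CPM in CHAR (SD, n = 6). The log2FC was -0.28 (SE 0.21, 95% interval -0.73 to 0.16) for KC against ANG, -0.16 (SE 0.23, interval -0.64 to 0.32) for KC against CHAR and -0.12 (SE 0.23, interval -0.60 to 0.36) for CHAR against ANG, with FDR values of 0.468, 0.689 and 0.854 by the quasi-likelihood test. The first of these intervals still allows a KC level lower than ANG by 0.73 on the log2 scale.

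ACLY was at 1655 ± 1067 CPM in ANG (SD, n = 8), 1061 ± 680 CPM in KC (SD, n = 8) and 565 ± 342 CPM in CHAR (SD, n = 6). Single steers ranged from 622 to 3837 CPM in ANG and from 214 to 1181 CPM in CHAR. Of the 6 CHAR steers 4 lay below every ANG steer, and the other two, F47 and F48, lay within the ANG range. The CHAR against ANG log2FC was -1.56 (SE 0.46, 95% interval -2.52 to -0.59), a 2.94-fold lower fitted level in CHAR. Its unadjusted p was 0.0030 and its FDR 0.139 by the quasi-likelihood test, and the FDR by DESeq2 was 0.0577. At an FDR below 0.1, 0.804% of genes were lower and 0.406% higher in CHAR by the quasi-likelihood test, and 2.33% were lower by DESeq2. Permuting breed labels within RFI class gave an exact p of 0.0147, or 0.0882 after adjustment over the 6 breed tests of the pair. The sign was shared by both RFI classes, with a log2FC of -1.60 in H-RFI steers and -1.52 in L-RFI steers. All CHAR libraries belonged to the class with more ambiguous reads, and a term for that class gave -1.75 with an FDR of 0.135.

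KC lay between the other breeds for ACLY, with a log2FC of -0.78 (SE 0.41, FDR 0.288) against ANG, where 3.15% of genes were lower and 2.51% higher, and of 0.78 (SE 0.45, FDR 0.274) against CHAR, where 8.39% were lower and 8.44% higher. Leaving out 1 steer at a time, the ACLY log2FC ran from -1.14 to -0.49 against ANG, nearest to 0 without F23, and from 0.41 to 1.13 against CHAR, nearest to 0 without F11, with FDR of at least 0.103 in each such fit. These averages hide the split by RFI class. Against ANG the KC log2FC was 0.33 (SE 0.31) for SREBF1 and 0.13 (SE 0.39) for ACLY among H-RFI steers, and -0.90 (SE 0.27, FDR 0.365) and -1.69 (SE 0.62, FDR 0.426) among L-RFI steers. Among H-RFI steers every KC value (1079 to 2222 CPM) exceeded every CHAR value (214 to 645 CPM), as held for 10.7% of all genes, with a log2FC of 1.72 (SE 0.38, FDR 0.0544) in a fit of those 7 steers, where 4.84% of genes were higher in KC. Among L-RFI steers the KC against CHAR log2FC of ACLY was -0.17 (SE 0.62, FDR 0.952). For SREBF1 the signs were opposite in the classes, at 0.68 (SE 0.28, FDR 0.182) among H-RFI and -1.00 (SE 0.15, FDR 0.139) among L-RFI steers, where 0% of genes were called lower. The 4 KC L-RFI steers had less SREBF1 than each of the 3 CHAR L-RFI steers, as held for 4.84% of all genes, and each of the 4 ANG L-RFI steers, as held for 3.08%, there by the narrow margin of 153.1 CPM in F14 against 154.1 CPM in F24.

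Ordered by mean, SREBF1 ran from KC H-RFI (293 CPM) through CHAR L-RFI (266), ANG L-RFI (247), ANG H-RFI (233) and CHAR H-RFI (182) to KC L-RFI (133). Each pair of neighbours in this order overlapped, and of the 15 pairs of groups 3 did not, each of them with KC L-RFI as the lower group, beside KC H-RFI, ANG L-RFI and CHAR L-RFI. The order for ACLY was ANG L-RFI (1909 CPM), KC H-RFI (1532), ANG H-RFI (1401), CHAR L-RFI (667.5), KC L-RFI (591) and CHAR H-RFI (462). Again neighbours overlapped, and 1 pair of 15, KC H-RFI and CHAR H-RFI, did not.

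Whether steers rich in SREBF1 were also rich in ACLY was asked within breeds and, after the 6 group means were removed, over all steers, which made 4 relations. In ANG, Pearson's r of the log2 levels was 0.86 (exact permutation p = 0.0074, adjusted 0.0295, n = 8) and Spearman's rho 0.83 (exact permutation p = 0.0154, adjusted 0.0615). Steers F21 and F23 were highest and F24 and F28 lowest or near lowest for both genes. F20 broke this order, with the lowest ACLY of the breed, at 622 CPM, and a middling SREBF1 of 202 CPM. Without F21 and F23, the steers farthest from the SREBF1 median, r was 0.63 (exact permutation p = 0.224, n = 6), so the relation was not detectable in the remaining 6 and rests in part on those 2 steers. Leaving out 1 steer at a time, r stayed between 0.76 and 0.93, with exact permutation p from 0.0038 to 0.0419. In KC r was 0.66 (exact permutation p = 0.0756, adjusted 0.114, n = 8) and rho 0.57 (exact permutation p = 0.151, adjusted 0.268). The KC RFI classes did not overlap in SREBF1, so this r holds the difference between the classes as well as any relation within them. After each RFI class mean was removed, r was 0.04 in KC (n = 8), 0.86 in ANG (n = 8) and -0.26 in CHAR (n = 6), given as a description.

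In CHAR r was 0.03 (exact permutation p = 0.942, n = 6) and rho -0.03 (exact permutation p = 1.0). This too depended on 2 steers, since without F46 and F48 r was 0.996 over the remaining 4, with an exact permutation p of 0.167. Over the 22 steers centred within groups, r was 0.41 (permutation p = 0.0853, adjusted 0.114) and rho 0.32 (permutation p = 0.201, adjusted 0.268), and r was 0.27 without F23 and F28. By this centred r many genes followed SREBF1 more closely than ACLY did, with ACLY at rank 961 of 14047.

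**Figure D4:**
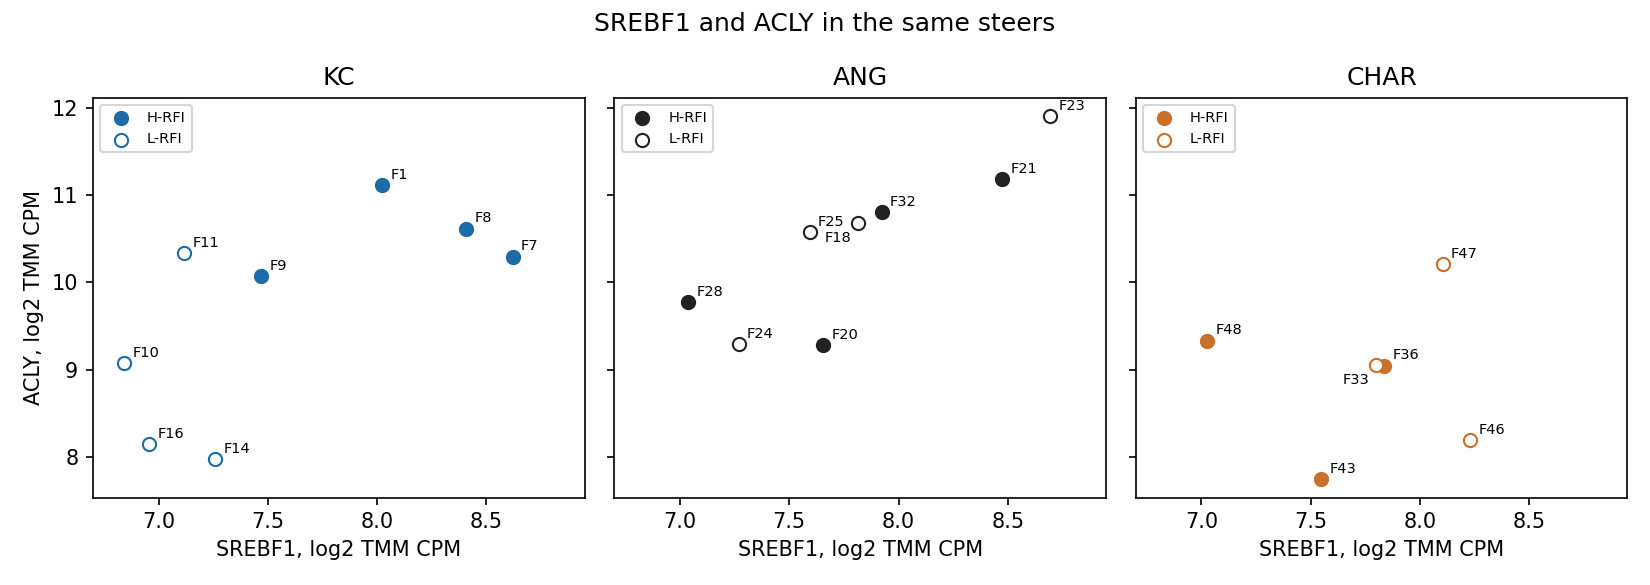
ACLY against SREBF1 in the same steers, both as log2 TMM CPM, with 1 panel per breed and 1 point per steer, filled for H-RFI and open for L-RFI. ANG steers run from low in both to high in both (r = 0.86, n = 8), KC steers split by RFI class along SREBF1, and CHAR steers show no common order (r = 0.03, n = 6).

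The other genes of lipid synthesis could be followed only where an identifier had a symbol. Symbols came from the table in which the study listed genes it had called between RFI groups in these same steers, so the genes below were partly chosen for their RFI difference, and their KC values are no independent evidence. Of the 10 genes listed for acetyl-CoA and NADPH supply 2 could be matched, ACLY and SLC25A1, and of 21 for sterol synthesis 4, which were SQLE, LSS, TM7SF2 and AACS. None of the 12 for fatty acid synthesis and desaturation, the 8 for triacylglycerol assembly or the 14 for SREBP control could be matched, so the direct SREBP-1 targets of fatty acid synthesis are not described here. SLC25A1 is the mitochondrial carrier that exports the citrate used by ACLY. AACS makes acetoacetyl-CoA from ketone bodies in the cytosol, SQLE and LSS act on squalene and its epoxide, and TM7SF2 is a sterol reductase.

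In KC all 5 had L-RFI values below H-RFI values, with log2FC of -1.03 (SLC25A1 and LSS), -1.16 (AACS), -1.23 (TM7SF2) and -1.31 (SQLE). By the quasi-likelihood test the unadjusted p ran from 0.00036 to 0.0020 and the FDR from 0.126 to 0.131, so that test called none. The study, with edgeR at the same limits, had listed AACS, LSS, SQLE and TM7SF2 as lower in KC L-RFI steers. Its methods do not name the edgeR test used. At these limits edgeR's exact test called 0.75% of all genes lower in KC, whereas the quasi-likelihood test called 0.00729% in either direction. A missing call by the quasi-likelihood test is therefore no evidence against a call by another edgeR test. Calls of these 5 genes by the exact test are not given here. Over all genes in KC, L-RFI was lower without overlap for 5.6% and at an unadjusted p under 0.05 for 9.34%. SLC25A1 was at 694, 919, 889 and 863 CPM in H-RFI steers F1, F7, F8 and F9 and at 364, 667, 304 and 302 CPM in L-RFI steers F10, F11, F14 and F16. F11 was again the highest L-RFI steer, as it was for AACS, LSS, SQLE and TM7SF2. For SQLE the groups were apart by the narrowest margin, 26.58 CPM in F11 against 26.59 CPM in F9.

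In ANG the 5 genes had log2FC from 0.07 (SQLE) to 0.61 (SLC25A1), with a median of 0.43. SLC25A1 was at 462, 781, 646 and 621 CPM in H-RFI steers F20, F21, F28 and F32 and at 1138, 1260, 484 and 942 CPM in L-RFI steers F18, F23, F24 and F25. In that breed 1 of 5 genes, SLC25A1, had an unadjusted p under 0.05 by edgeR's quasi-likelihood test with L-RFI higher (FDR 0.979, exact permutation p = 0.171), against 1.9% of all genes in ANG. In CHAR the log2FC ran from -0.55 (SLC25A1) to 0.06 (LSS), with a median of -0.13, and none of the 5 had an unadjusted p under 0.05, against 2.21% lower and 2.42% higher over all genes in CHAR. SREBF1 at 0.55 and SLC25A1 at -0.55 thus had opposite signs in CHAR.

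**Figure D5:**
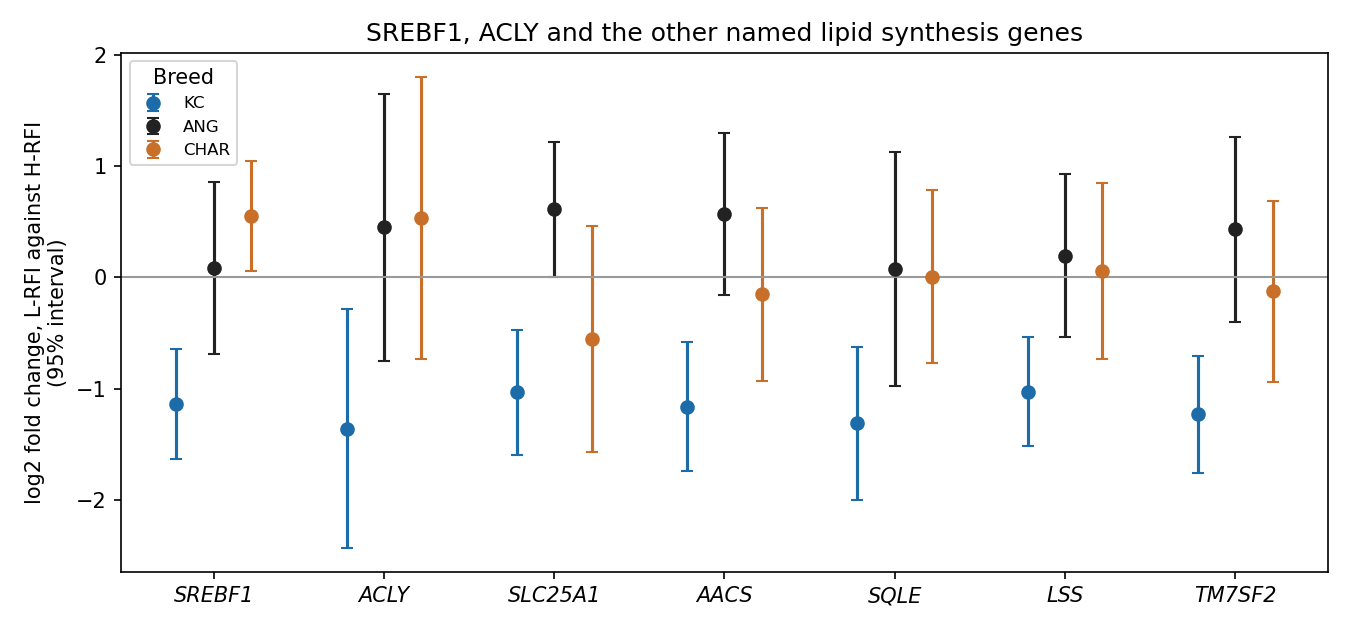
Fitted log2 fold changes, L-RFI against H-RFI, of SREBF1, ACLY and the 5 other matched genes in KC, ANG and CHAR, with 95% intervals from edgeR's quasi-likelihood test. All 7 KC estimates lie between -1.36 and -1.03, those of ANG lie between 0.07 and 0.61, and those of CHAR lie between -0.55 and 0.55.

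Between CHAR and ANG the 5 genes had the same sign as ACLY. CHAR against ANG, the log2FC was -0.86 (SE 0.25, FDR 0.137) for LSS, -0.81 (SE 0.26, FDR 0.179) for SLC25A1, -0.73 for SQLE, -0.63 for AACS and -0.59 for TM7SF2, with FDR values up to 0.338. The ACLY value of -1.56 was the most negative of the 7 and the SREBF1 value of -0.12 the nearest to 0. SQLE was the one gene of these called between KC and CHAR by the quasi-likelihood test. Its log2FC was 1.06 (SE 0.33, FDR 0.0497), with a higher fitted level in KC, where 8.44% of all genes were called higher. KC H-RFI steers, at 26.6 to 57.7 CPM, lay above all CHAR steers, which reached 20.6 CPM, while KC L-RFI steers, at 11.2 to 26.6 CPM, overlapped them. Of all genes, 10.7% had every KC H-RFI steer above every CHAR H-RFI steer, and the share above all CHAR steers was not counted.

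Over the 22 steers centred within breed and RFI class, ACLY varied together with all 5 genes. Pearson's r was 0.87 with LSS, 0.81 with SLC25A1, 0.76 with SQLE, 0.76 with AACS and 0.69 with TM7SF2, with permutation p adjusted over 10 relations from 0.0006 to 0.0114, and rho was 0.84, 0.78, 0.75, 0.73 and 0.63. Without F11 and F24, the steers farthest from the ACLY median, r was 0.70 to 0.83 for 4 of the genes and 0.56 for TM7SF2, whose permutation p was then 0.0617. SREBF1 varied together with SQLE, at r = 0.78 (adjusted permutation p = 0.0012) and rho 0.73, and r was 0.70 without F23 and F28. With AACS its r was 0.55 (adjusted permutation p = 0.0324) and its rho 0.49 (adjusted permutation p = 0.0588), and without those 2 steers r was 0.45 with a permutation p of 0.0731. With TM7SF2, LSS and SLC25A1 r was 0.33, 0.34 and 0.20, with adjusted permutation p from 0.241 to 0.393. Within breeds, before centring, r of SREBF1 with SQLE was 0.94 in KC, 0.92 in ANG and 0.01 in CHAR. The CHAR value was 0.86 without F46 and F48. In CHAR r of SREBF1 was -0.69 with TM7SF2 and -0.61 with SLC25A1, and -0.28 and 0.53 without those 2 steers. These values within breeds were not tested.

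Among the 241 other genes with a symbol, those most like SREBF1 by centred Pearson's r were SQLE (0.78, rank 5 of all 14047 genes), ZNF324 (0.70, rank 45), DUSP4 (0.64, rank 88) and HOGA1 (0.63, rank 115), beside 1 gene that is not reported here. By Spearman's rho over the uncentred steers they were HOGA1 (0.68), AACS, ATP12A and GREB1 (each 0.65) and PLCH2 (0.61). Those most like ACLY by centred r were LSS (0.87, rank 10), SLC25A1 (0.81, rank 31), ATP12A (0.78, rank 66), AACS and SQLE (each 0.76), and by uncentred rho LSS (0.92, rank 4), ATP12A (0.83), AACS (0.83), SLC25A1 (0.81) and TM7SF2 (0.76). The highest centred r of any gene was 0.87 for SREBF1 and 0.92 for ACLY, and the genes ranked above the first named one have no symbol here. SREBF1 did not reach the first 5 named genes of ACLY, nor ACLY those of SREBF1, by either measure. The named genes were those the study had called between RFI groups in these same steers. An uncentred rho can therefore hold a shared RFI difference as well as likeness between steers of a group.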

How the data were processed

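Subcutaneous adipose tissue RNA of 22 steers was sequenced by the authors as rRNA-depleted, stranded, paired 100 bp libraries. Per the submitters' processing notes and the methods, reads were trimmed (quality limit 20, shortest length 75 bp), aligned to UMD3.1 with TopHat2 2.0.9, sorted with SAMtools 1.1 and counted per gene with HTSeq 0.6.1. The authors deposited raw counts for 24616 genes and 5 summary lines, which were kept out of library sizes. The annotation version and strand setting are not given in the sources used here. All 22 columns were used, and none were identical. Groups came from the labels, which number each steer separately. Symbols for 242 identifiers came from the study's supplementary table.

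Within a breed, a gene had to exceed 1 CPM in 50% or more of the steers. The quasi-likelihood test of edgeR was applied after TMM scaling (R 4.3.3, edgeR 4.0.16, limma 3.58.1), and the limits, FDR below 0.1 and absolute log2FC of at least 1, follow the study's methods. Breed contrasts, the interaction, the averaged RFI contrast and the RFIfat slope used 1 fit of all 22 steers over 14048 genes and FDR below 0.1. Single genes also had exact 2-sided permutation tests of log2 CPM, and correlations used exact permutations within breeds and 100000 resamples within groups for all steers (python 3.11.15, numpy 2.4.6, scipy 1.17.1, pandas 2.3.3, matplotlib 3.10.9). Likeness to other genes used log2(CPM + 0.5). The quasi-likelihood tests of RFI within breeds, of breed pairs, of the averaged RFI difference and of the interaction were checked on simulated data. The RFIfat slope, the permutation tests, the correlations and the alternative tests were not. Alternatives were DESeq2 1.42.0, RLE factors, total counts, edgeR's exact and likelihood ratio tests, no filter, other sets of steers, leaving out each steer, and, added after the data were seen, a term for libraries with few ambiguous reads. Named genes were the pair, matched members of fixed lists, and for each of the pair the 5 most alike named genes by r and by rho. SREBF1, ACLY, the lists and the tests were chosen with earlier results of these data known. Some genes are not reported here by name. No genome of the build used was at hand, so no coordinates or sequences are given.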

Additional observations from a re-analysis of the deposited data

Results flagged for a closer look

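Among 28 sets of 4 steers of 1 breed and RFI class (SREBF1, ACLY and the 5 other matched genes), 1 held a steer far from the rest. SLC25A1 in KC L-RFI was at 666.9 CPM in F11 against 302 to 364 CPM in F10, F14 and F16, a gap to the next steer just past the limit of Dixon's test at 95%. Chance alone marks about 1 set in 20. F11 was also the highest KC L-RFI steer for ACLY, at 1291 CPM, which did not reach that limit, and held the most TTN of any steer. TTN had a symbol here because the study had called it in these KC steers.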

How the results depend on the processing

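SREBF1 in KC kept its sign under all settings (-1.17 to -1.13) and was past the limits by DESeq2 (-1.134), the exact test (-1.14), the likelihood ratio test (-1.14) and the fit of all 22 steers (-1.14), and without 1 steer at a time it ran from -1.317 to -0.9633. ACLY in KC was past them by the exact and likelihood ratio tests (-1.364 each), and ran from -2.091 to -1.109. Leaving out 1 steer moved the RFI log2FC in ANG from -0.2858 to 0.3631 for SREBF1 and from -0.1443 to 0.8031 for ACLY, and that of ACLY in CHAR from -0.1664 to 0.8888. ACLY in CHAR against ANG was past the limit by DESeq2 (-1.559) and, among the fits without 1 steer (-1.908 to -1.262), without F11 (FDR 0.0976) or F24 (FDR 0.081). SREBF1 in CHAR against ANG ran from -0.2262 to 0.06157 and was 0.105 in L-RFI steers only. With H-RFI steers only, KC against ANG was 0.3343 for SREBF1 and 0.1319 for ACLY, and KC against CHAR 0.6794 for SREBF1 and 1.724 for ACLY, which was called. With L-RFI steers only, KC against ANG was -0.9003 for SREBF1 and -1.691 for ACLY, and ACLY in KC against CHAR was -0.172. The SREBF1 and ACLY correlation in CHAR was -0.02857 as rho and -0.3945 to 0.4109 without 1 steer, and the centred one 0.2579 to 0.5086, with p = 0.033 by permutation without F48. Counts of the 5 genes higher in ANG L-RFI ran from 0 to 3. Of 137 values under other settings 123 kept sign and side of the limit. The cause was not tested. SREBF1 had at least 1060 and ACLY at least 2017 reads in every steer, and groups held 3 or 4 steers.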
